A study of Arabidopsis thaliana with 8 samples.

Results

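Between 2 sets of arrays of Arabidopsis seedlings, COR27, a cold- and light-regulated repressor of clock genes, was higher on the arrays with control RNA, and cell wall extensins and the sugar transporter SAG29 were lower. The sets are 4 arrays with and 4 without signal from added control RNA, which are all 8 arrays of the series. Their members were chosen by one measured value, the signal of a probe set for dap, a Bacillus RNA that can be added to plant RNA before labelling, with a threshold of 50. No plant gene entered that choice.

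The arrays with control RNA were replicates 1 and 4 of E2Fa-Dpa and replicates 3 and 4 of wildtype. The arrays without it were replicates 2 and 3 of E2Fa-Dpa and replicates 1 and 2 of wildtype, so each set holds 2 arrays of each group. All seedlings were Col-0, were grown whole on agar at 22 °C with 16 h of light and 8 h of dark, and were harvested 6 days after germination (8 days after sowing). The labels name E2Fa-Dpa, after a pair of transcription factors that bind DNA as a dimer, but do not say how those seedlings were made or whether samples were grown separately. The labels name neither array set, nor a time of day, a harvest or a hybridization. Whatever else the sets had in common besides the control RNA cannot be told apart from it.

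The circadian clock of plants is a set of transcription factors that repress each other in turn over the day, so clock genes peak at different hours. The cold response shares targets with it, and its proteins protect membranes and cells from freezing and drying. Root hairs are outgrowths of single root epidermal cells, whose walls hold extensins and expansins. In seedlings these programmes depend on time, light, temperature and organ.

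The dap signal was 121 and 96.8 in E2Fa-Dpa and 107 and 79.4 in wildtype on the arrays with control RNA. It was 4.74 and 0.644 in E2Fa-Dpa and 6.17 and 3.85 in wildtype on the arrays without it. The arrays nearest the threshold were thus at 79.4 (wildtype replicate 4) and 6.17 (wildtype replicate 1), and none lay close to it. All 24 probe sets of the Bacillus RNAs dap, lys, phe and thr separated the same 8 arrays, with 6.5 to 183 against 0.178 to 13.7. The 3 probe sets of trp, another Bacillus RNA, did not separate them and gave 0.135 to 6.24 against 0.206 to 8.14. These values describe the choice and are no test.

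**Figure D1:**
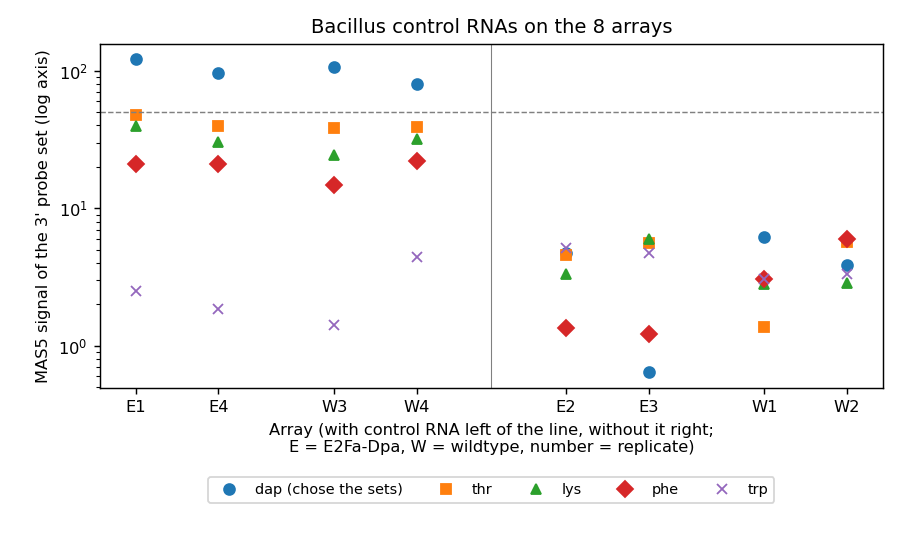
MAS5 signal (log axis) of 5 Bacillus control RNAs on each array, with the arrays with control RNA left of the line and the arrays without it right. The dashed line is the threshold of 50, which the dap signal passes on 4 arrays, while trp stays low on all 8.

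Other control probe sets differed too. Of 18 probe sets of hybridization controls 7 lay apart, and BioDn-5 among them gave 392 to 512 with control RNA and 91 to 103 without it. The probe set for 25S ribosomal RNA gave 46.3 and 118 in E2Fa-Dpa and 77.3 and 49.6 in wildtype with control RNA, against 1.52 and 3.53 in E2Fa-Dpa and 6.09 and 2.16 in wildtype without it. The ratio of the 3′ to the 5′ signal, a measure of RNA length, was read by 2 pairs of probe sets for each of 3 genes. For actin it averaged 1.85 ± 0.139 with control RNA and 1.32 ± 0.174 without it in one pair (SD, n = 4 each), and 13.8 ± 0.961 with control RNA and 6.88 ± 1.19 without it in the other. For ubiquitin the pairs differed, with 1.21 ± 0.0603 with control RNA and 1.79 ± 0.12 without it in one, and 2.92 ± 0.214 with control RNA and 2.5 ± 0.29 without it in the other, where the sets overlapped. For GAPDH one pair overlapped, at 0.898 ± 0.0667 with control RNA and 0.938 ± 0.0628 without it, and the other did not, at 1.38 ± 0.0544 with control RNA and 1.16 ± 0.126 without it. The part of these in the plant results was not tested.

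The arrays also fell into 4 close pairs, each of 1 group and 1 set. Log2 signals correlated at 0.9941 (E2Fa-Dpa) and 0.9743 (wildtype) within the pairs with control RNA, and at 0.9884 (E2Fa-Dpa) and 0.9852 (wildtype) within those without it. The highest correlation between arrays of different pairs was 0.9682 (E2Fa-Dpa replicates 3 and 4), not far below the lowest within a pair. Arrays of a pair share both group and set, which alone can raise their correlation. If a pair came from 1 RNA, the number of independent samples would be 2 per set where 4 is given. P-values measure the spread between these arrays, part of which may be technical.

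Over the whole array 2214 of 22746 probe sets, or 9.73%, were higher with control RNA, and 3762, or 16.5%, were lower. These calls come from limma on log2(signal + 16) with the group in the model, with Benjamini-Hochberg adjustment and a threshold of 0.05. Of them 186 were at least 2-fold higher and 273 at least 2-fold lower. The split between higher and lower depended on the scaling. With the authors' scaling 37% of the calls were higher, with each array centred on its median 53.5% (2932 higher, 2548 lower), with quantile normalization 51.5% (2644 and 2492) and with cyclic loess 49.3% (2595 and 2670). In 2048 higher and 2056 lower probe sets the call was the same under all of these scalings. Probe sets without overlap between the sets made up 6.73% for higher and 13.4% for lower. With each array left out in turn the total of 5976 calls lay between 3402 (without E2Fa-Dpa replicate 1) and 6754 (without wildtype replicate 3). With each close pair averaged it was 487, of which 484 were among the 5976 with the same direction. A single value per pair leaves little to estimate the spread from, so calls can be lost for that reason too. Of 69 called genes named below by a rule on size and lists, 31 stayed called with the pairs averaged and 55 stayed called whichever array was left out.

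The comparison was also made within each group. The 2 differences share no array, but their p-values use 1 spread pooled over all 8 arrays, so the calls are not independent. Within E2Fa-Dpa 5.29% of probe sets were higher and 7.72% lower with control RNA, and within wildtype 5.7% were higher and 8.42% lower. Of the 3211 probe sets called in wildtype, 2933 had the same direction in E2Fa-Dpa and 1332 were called there with it. These 1332 are 41.5% of the wildtype calls and 45% of the E2Fa-Dpa calls, and 14 were called in opposite directions. Across the tested probe sets, which are not independent, the differences in the 2 groups correlated at r = 0.633. The set difference itself differed between the groups in 19 probe sets, or 0.0835%. These counts compare 1 close pair with another. Without wildtype replicate 4 the 19 became 1044, and without E2Fa-Dpa replicate 1 or 4 they became 0, with 2647 probe sets at an unadjusted p under 0.05 over all 8 arrays by limma.

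**Figure D2:**
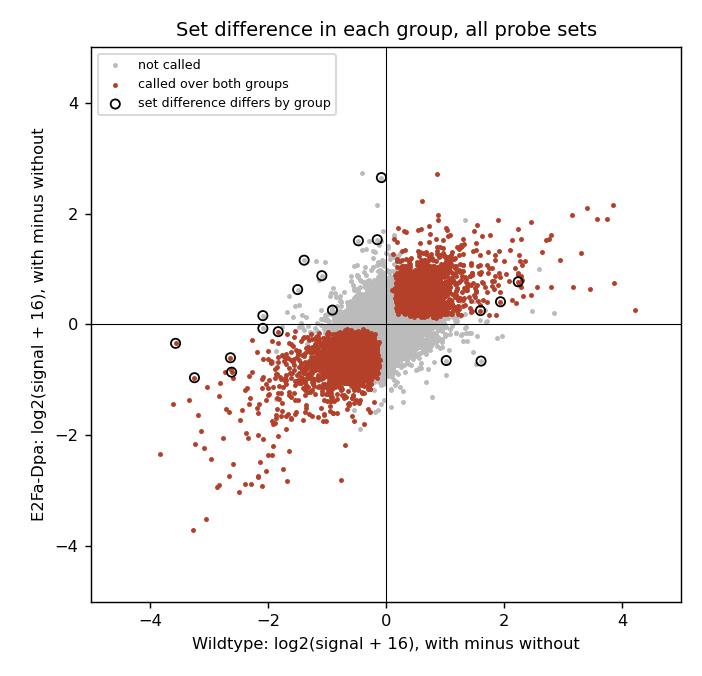
Difference between the array sets in E2Fa-Dpa (y axis) against that in wildtype (x axis), both as log2(signal + 16), with minus without control RNA, 1 point per tested probe set. Red points were called over both groups and lie where the directions agree, and circles mark the 19 probe sets whose set difference differed between the groups.

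The gene lists were chosen with earlier results of these data known, so their counts and medians describe and are no test. The clock list held 37 genes, of which 7 had a named probe set, and the others were not analysed here. Of the 7, 3 were higher and 2 lower with control RNA, and the list's median log2 difference was 0.50 against -0.08 over all 13355 named genes, of which 8.7% were higher and 16.4% lower. The list's median was 0.88 in E2Fa-Dpa and -0.14 in wildtype. COR27 gave signals of 111 and 87.8 in E2Fa-Dpa and 245 and 302 in wildtype on arrays with control RNA, against 9.17 and 10.5 in E2Fa-Dpa and 1.14 and 7.52 in wildtype on arrays without it. Every array with control RNA lay far above every array without it, and no other named gene rose more. Its log2 difference was 3.00 ± 0.314 (the error of a log2 difference is its SE, adjusted p = 0.000874), with 2.15 in E2Fa-Dpa and 3.84 in wildtype.

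AT4G33980, written in the list as COR28 although the gene table used here gives it no symbol, gave 94.3 and 82.4 in E2Fa-Dpa and 229 and 192 in wildtype on arrays with control RNA, against 17 and 7.17 in E2Fa-Dpa and 3.85 and 2.15 in wildtype on arrays without it. It followed COR27 closely, with wildtype above E2Fa-Dpa in the set with control RNA and below it in the other. Its log2 difference was 2.74 ± 0.309 (adjusted p = 0.00103). GI, a protein that links the clock to flowering by day length, gave 326 and 323 in E2Fa-Dpa and 426 and 151 in wildtype on arrays with control RNA, against 194 and 146 in E2Fa-Dpa and 89.8 and 82.1 in wildtype on arrays without it. Here the sets overlapped, because wildtype replicate 4 lay below E2Fa-Dpa replicate 2 without control RNA. The log2 difference of GI was 1.15 ± 0.27 (adjusted p = 0.016).

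TIC, a regulator needed for the clock to keep its rhythm, was lower and gave 242 and 257 in E2Fa-Dpa and 257 and 207 in wildtype on arrays with control RNA, against 657 and 723 in E2Fa-Dpa and 378 and 355 in wildtype on arrays without it. The 4 arrays with control RNA lay close together, and without it E2Fa-Dpa lay above wildtype. The log2 difference was -1.02 ± 0.159 (adjusted p = 0.00343). AT5G52660, written in the list as RVE6, was lower by a small amount, with 52.5 ± 4.35 with control RNA and 88.4 ± 7.85 without it (SD, n = 4 each) and a log2 difference of -0.61 ± 0.0908. With the close pairs averaged the calls of TIC and AT5G52660 ended (adjusted p = 0.0608 and 0.0782), and those of the 3 higher clock genes stayed. XCT, named for its role in clock timing, was not called, with 0.50 over both groups, 1.13 in E2Fa-Dpa (adjusted p = 0.0174, a call in that group) and -0.14 in wildtype (adjusted p = 0.697). AT4G01280 was not called either, with -0.27 (adjusted p = 0.118). Of the list of clock outputs and day length genes 1 of 31 was measured, AT1G69570, which was lower with -0.85 (adjusted p = 0.024). That call ended when any 1 of 4 arrays was left out, with an adjusted p of up to 0.0677.

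**Figure D3:**
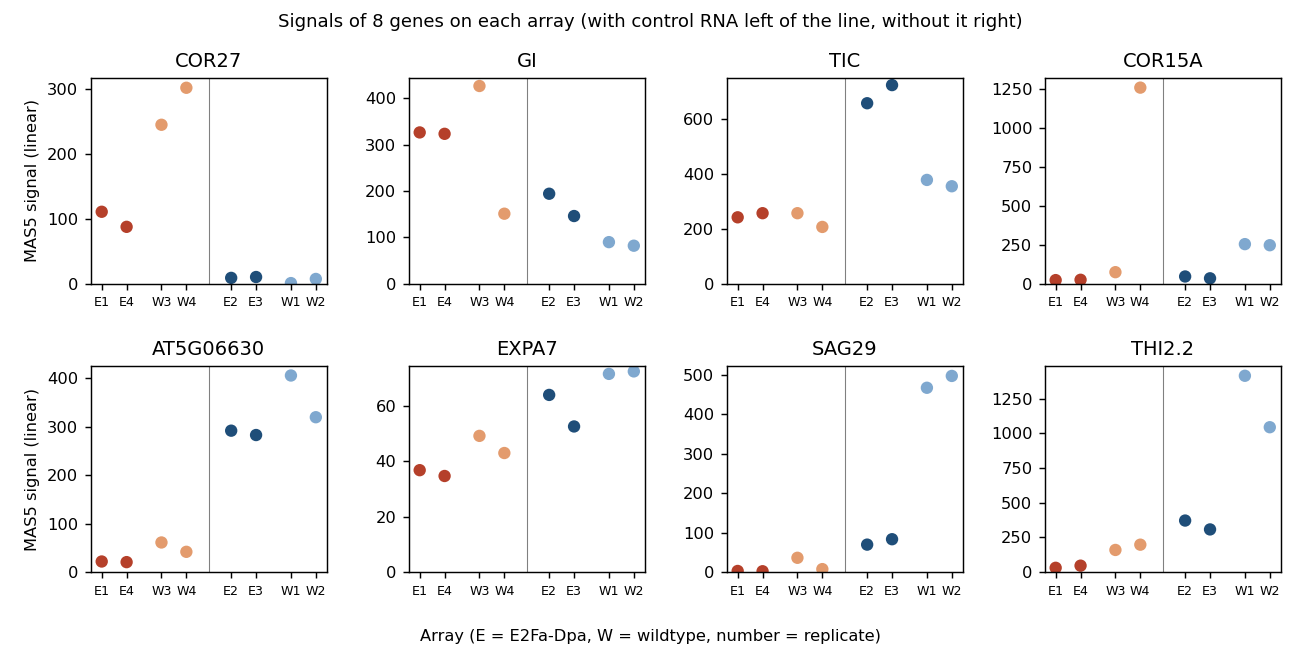
MAS5 signal (linear axis from 0) of 8 genes on each array, 1 point per array (E for E2Fa-Dpa, W for wildtype, with the replicate number), with the arrays with control RNA left of the line. COR27 is above 80 on the 4 arrays with control RNA and at most 10.5 on the others, SAG29, THI2.2 and AT5G06630 show the opposite order, and COR15A is high on wildtype replicate 4 alone.

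Of 39 genes on the cold list 7 were measured, and 2 of them were higher with control RNA, none lower. The 2 were COR27 and AT4G33980, which the clock list also holds. The other members, the protective proteins of the cold response and a transcription factor, were not called. COR47, a dehydrin, gave 405 and 394 in E2Fa-Dpa and 2242 and 1725 in wildtype on arrays with control RNA, against 581 and 531 in E2Fa-Dpa and 1279 and 1157 in wildtype on arrays without it. The difference was -0.46 in E2Fa-Dpa (adjusted p = 0.0766) and 0.69 in wildtype (adjusted p = 0.0229), and of these the wildtype value passed. The test of the difference between the groups gave -1.15 (adjusted p = 0.11). LTI30, another dehydrin, had -0.26 in E2Fa-Dpa (adjusted p = 0.116) and 0.50 in wildtype (adjusted p = 0.0168).

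COR15A and COR15B, proteins that stabilise chloroplast membranes in the cold, were not called. COR15A gave 23.9 and 26 in E2Fa-Dpa and 74.9 and 1260.1 in wildtype on arrays with control RNA, against 47.2 and 35.5 in E2Fa-Dpa and 255 and 248 in wildtype on arrays without it. Wildtype replicate 4 stood far above wildtype replicate 3, its partner in the close pair. The log2 difference was -0.06 ± 0.661 (adjusted p = 0.952), and without wildtype replicate 4 it was -0.91 (adjusted p = 0.0245), a call. COR15B gave 71.2 and 74.7 in E2Fa-Dpa and 133 and 1433 in wildtype on arrays with control RNA, against 33.5 and 23.9 in E2Fa-Dpa and 63.5 and 58.3 in wildtype on arrays without it, and the sets did not overlap. Its log2 difference of 1.80 ± 0.62 missed the threshold (adjusted p = 0.0613), and without wildtype replicate 4 it was 0.98 and passed (adjusted p = 0.00252). It also passed without wildtype replicate 3 (adjusted p = 0.0209) and, with all arrays, with a pseudocount of 1 (0.0351), with dim probe sets left out (0.0416), with median centring (0.0478) and with pairs as a random block (0.0389). STZ, a stress-induced zinc finger repressor, had 0.03 (adjusted p = 0.917).

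Of the 41 genes of the root hair list 6 were measured under the rule that the gene table must give the listed symbol, and 4 of them were lower with control RNA, none higher, with a median log2 difference of -0.47. One more, AT3G54590, is written in the list as EXT2 but is HRGP1 in the gene table, and is described with the largest falls. Matched by locus alone, 7 were measured and 5 were lower, with a median of -0.51. The largest fall was that of AT5G06630, written in the list as the extensin EXT13. It gave 21.7 and 20.4 in E2Fa-Dpa and 61 and 41.7 in wildtype on arrays with control RNA, against 292 and 283 in E2Fa-Dpa and 406 and 319.8 in wildtype on arrays without it. All 4 values with control RNA lay below all 4 without it, with a log2 difference of -2.77 ± 0.149 (adjusted p = 8.41e-05). Its probe set is of the kind marked as matching several similar transcripts, so other extensins may share the signal. AT1G26250, also on the list, gave 5.93 and 6.26 in E2Fa-Dpa and 17.8 and 9.54 in wildtype on arrays with control RNA, against 23.2 and 26.3 in E2Fa-Dpa and 46.2 and 30.6 in wildtype on arrays without it, with a log2 difference of -0.88 ± 0.13 (adjusted p = 0.00277).

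EXPA7 and EXPA18 are expansins of root hair cells. EXPA7 gave 36.8 and 34.7 in E2Fa-Dpa and 49.2 and 43 in wildtype on arrays with control RNA, against 64 and 52.6 in E2Fa-Dpa and 71.6 and 72.5 in wildtype on arrays without it. The sets were apart by a narrow margin, with a log2 difference of -0.51 ± 0.0975 (adjusted p = 0.00727), a call that ended with the close pairs averaged (0.103) and without the group in the model (0.0504). EXPA18 had 47.4 ± 3.28 with control RNA and 70.9 ± 21.5 without it (SD, n = 4 each) and a log2 difference of -0.42 (adjusted p = 0.0331). Its call ended under each of the other scalings and when any 1 of 5 arrays was left out. The last 2 members, XTH26 and AT2G14760, stayed under a signal of 16 on every array and were not called.

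Of 6 measured genes of a list of other root-expressed genes, 2 were higher and 1 lower. The peroxidase locus AT3G01190 had 0.54 in E2Fa-Dpa and 1.18 in wildtype (adjusted p over both = 0.00742), AT4G11290 rose with 0.71 and AT5G17820 fell with -0.43. Both of these last calls were lost without single arrays, with adjusted p up to 0.0873 and 0.0711. The summed signal of all 12 measured root genes ranged from 3506 to 7711 with control RNA and from 3871 to 5788 without it. Of the 8 measured nuclear photosystem genes, which mark green tissue, 1 was lower, and their sum was 16599 to 23638 against 16679.9 to 23999.8. None of the 4 measured markers of stomata and trichomes was called, at sums of 67.3 to 88.5 against 58.5 to 103, with TRY and MUTE under 16 everywhere. The seed marker ICL ranged from 1.52 to 128 and from 4.54 to 264. Of 6 genes of dividing cells 1 was higher, and their sums were 401 to 1817 against 420.3 to 1242. In bulk tissue fewer cells of a type and less RNA per cell cannot be told apart.

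Among single genes, the 15 largest rises ranged from 1.6 to 3.0 and the 15 largest falls from 2.06 to 3.09 in size on the log2 scale. All 30 were also called within wildtype, and 10 of the rises and 15 of the falls within E2Fa-Dpa. The 30 were picked for size and lack of overlap on these same arrays, so the calls within groups are no separate support. Of the rises 14 were larger in wildtype, although none of the 30 passed the test of a difference between the groups (smallest adjusted p = 0.086). Only 4 of the rises and 3 of the falls have a symbol in the gene table, so the others are given by locus.

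PDF2.1, a plant defensin, a small antifungal peptide, gave 47.2 and 44.8 in E2Fa-Dpa and 171 and 421 in wildtype on arrays with control RNA, against 18.6 and 23.2 in E2Fa-Dpa and 1.85 and 5.83 in wildtype on arrays without it. The difference was 0.75 in E2Fa-Dpa (adjusted p = 0.183) and 3.86 in wildtype (adjusted p = 0.000897). Over both groups the adjusted p was 0.0193, a call that ended without wildtype replicate 1 or 2. CHL, the chloroplast lipocalin that protects thylakoid lipids from oxidation, gave 356 and 377 in E2Fa-Dpa and 527 and 594 in wildtype on arrays with control RNA, against 170.5 and 146 in E2Fa-Dpa and 89.8 and 118 in wildtype on arrays without it. Its order was the same in both groups, with wildtype highest with control RNA and lowest without it, and a log2 difference of 1.71 ± 0.216 (adjusted p = 0.00155). PDC2, a pyruvate decarboxylase of ethanol fermentation and the 1 measured gene of a hypoxia list of 14, gave 428 and 454 in E2Fa-Dpa and 388 and 217 in wildtype on arrays with control RNA, against 132 and 136 in E2Fa-Dpa and 60.3 and 91.3 in wildtype on arrays without it. It rose by 1.68 ± 0.176 (adjusted p = 0.000846), at 1.61 in E2Fa-Dpa and 1.76 in wildtype.

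Of the rises known by locus, AT1G56300 averaged 439 ± 44.7 with control RNA and 95.7 ± 51.1 without it (SD, n = 4 each) and AT4G16146 averaged 248 ± 87.2 with control RNA and 43.8 ± 14.5 without it. AT1G15270 had the smallest error of the rises, at 1.66 ± 0.113 (adjusted p = 0.000188). AT5G62360 had 0.64 in E2Fa-Dpa and 3.46 in wildtype, and its call ended without wildtype replicate 1 or 2. AT3G04550, AT1G07050, AT2G43550, AT3G10020, AT4G30330 and AT2G21130 rose by 1.83, 1.75, 1.73, 1.62, 1.61 and 1.60. The probe set with the largest rise among those with no gene name here gave 3546 and 3565 in E2Fa-Dpa and 3785 and 4186 in wildtype on arrays with control RNA, against 864 and 1029 in E2Fa-Dpa and 189 and 418 in wildtype on arrays without it, a log2 difference of 2.82 (adjusted p = 0.0018).

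SAG29, also called SWEET15, exports sucrose and is induced in senescence and seeds. It gave 2.6 and 1.93 in E2Fa-Dpa and 36 and 7.31 in wildtype on arrays with control RNA, against 69.4 and 83.1 in E2Fa-Dpa and 467 and 497 in wildtype on arrays without it. It was lowest on the E2Fa-Dpa arrays with control RNA, and without control RNA wildtype lay above E2Fa-Dpa. The log2 difference was -3.09 ± 0.332 (adjusted p = 0.000921). THI2.2, a thionin, a cysteine-rich peptide that can act against microbes, gave 30.3 and 45.7 in E2Fa-Dpa and 159 and 197 in wildtype on arrays with control RNA, against 371 and 307 in E2Fa-Dpa and 1415 and 1044 in wildtype on arrays without it. Wildtype exceeded E2Fa-Dpa in each set, and the fall was -2.73 in E2Fa-Dpa and -2.67 in wildtype (adjusted p over both = 8.41e-05).

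HRGP1, a hydroxyproline-rich cell wall glycoprotein of the extensin kind, gave 51.1 and 76.3 in E2Fa-Dpa and 215 and 83.7 in wildtype on arrays with control RNA, against 537 and 489.8 in E2Fa-Dpa and 742 and 614 in wildtype on arrays without it. The log2 difference was -2.47 ± 0.253 (adjusted p = 0.000786). HRGP1, AT5G06630, AT4G08410 and AT1G23720 are the 4 falls read by probe sets of the cross-matching kind, so their values may not be independent. The neighbouring locus of HRGP1, AT3G54580, has a probe set without that mark and showed -2.14 (adjusted p = 0.000155). AT5G15780 and AT2G16005 had differences of -2.90 ± 0.161 and -2.87 ± 0.0991, and in each the difference was nearly the same in both groups. AT5G48490 was the brightest of the falls and averaged 313 ± 40.9 with control RNA and 1515 ± 669.6 without it (SD, n = 4 each). AT5G38020, AT3G02480, AT5G37990, AT4G11190 and AT3G56290 had -2.45, -2.20, -2.17, -2.07 and -2.06. The probe set with the largest fall among those with no gene name here gave 68.3 and 54 in E2Fa-Dpa and 167 and 116 in wildtype on arrays with control RNA, against 1162 and 836 in E2Fa-Dpa and 1883 and 1165 in wildtype on arrays without it, a log2 difference of -3.49 (adjusted p = 8.41e-05).

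Over all named genes 8.7% were higher and 16.4% lower, and the families are given against these shares. Expansins loosen walls during growth, and of 18 measured members 9 were lower and 1 was higher, with a median of -0.46. That median was -0.73 with a pseudocount of 1, -0.25 with 64, -0.35 with quantile normalization and -0.37 with cyclic loess. EXPA16 gave 18.3 and 16.9 in E2Fa-Dpa and 30.4 and 29 in wildtype on arrays with control RNA, against 72.4 and 56.4 in E2Fa-Dpa and 71.6 and 109 in wildtype on arrays without it, with no overlap and -1.22 ± 0.133 on the log2 scale (adjusted p = 0.000939). EXPA9 had 95.7 ± 6.59 with control RNA and 178 ± 12.5 without it (SD, n = 4 each) and -0.79 ± 0.0768 (adjusted p = 0.000615). The EXPA9 call ended with the close pairs averaged. EXPA20, the exception, had 0.66 (adjusted p = 0.0203). Of 9 xyloglucan hydrolases, which cut and rejoin wall polymers, 4 were lower and none higher. XTH32 had -0.62 in E2Fa-Dpa and -2.09 in wildtype, and XTH20 had -0.94 in E2Fa-Dpa and -0.24 in wildtype, with no call for a difference between the groups (adjusted p = 0.212 and 0.395). XTH20 lost its call when any 1 of 6 arrays was left out (adjusted p up to 0.112). Tubulins, the subunits of microtubules, went the other way, with 3 of 7 higher, none lower and a median of 0.32. TUB5 gave 678 and 704 in E2Fa-Dpa and 763 and 714 in wildtype on arrays with control RNA, against 451 and 443 in E2Fa-Dpa and 306 and 327 in wildtype on arrays without it, a rise of 0.90 ± 0.122 (adjusted p = 0.00204), and TUA6 rose by 0.38 (adjusted p = 0.0241), a call that ended under quantile normalization and cyclic loess.

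The glycosyltransferases of the UGT family, which attach sugars to hormones and defence compounds, were higher for 10 and lower for 4 of 47 measured members, with a median of 0.16. UGT74B1, which acts in glucosinolate synthesis, gave 245 and 221 in E2Fa-Dpa and 166 and 238 in wildtype on arrays with control RNA, against 128 and 115 in E2Fa-Dpa and 126 and 115 in wildtype on arrays without it, a rise of 0.76 ± 0.12 (adjusted p = 0.00364). UGT73B4 rose by 0.81 ± 0.101 (adjusted p = 0.00145). Of 3 glucosinolate genes measured, UGT74B1 was the 1 called, and BCAT4, of methionine chain elongation, had -0.03. Of 6 genes matched by name as class III peroxidases 2 were higher and 1 lower. The match was partial, since the peroxidase locus AT3G01190 and others of the root list are not among them. Prx37 gave 77.6 and 78.8 in E2Fa-Dpa and 272 and 182 in wildtype on arrays with control RNA, against 52.5 and 48.2 in E2Fa-Dpa and 29.3 and 34.8 in wildtype on arrays without it, with 0.51 in E2Fa-Dpa and 2.32 in wildtype, and AT5G64120, listed as peroxidase 71, had 0.86.

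Of 23 genes in a light and flavonoid list 6 were measured, and 3 were lower, none higher. DFR, the enzyme that commits flavonoids to anthocyanins, gave 9.82 and 10.3 in E2Fa-Dpa and 9.58 and 9.31 in wildtype on arrays with control RNA, against 25.2 and 27.8 in E2Fa-Dpa and 63.5 and 45 in wildtype on arrays without it. All 4 arrays with control RNA lay below all 4 without it, a log2 difference of -1.08 ± 0.165 (adjusted p = 0.00317). AT5MAT, which adds malonate to anthocyanins, had -0.57 (adjusted p = 0.00431), at dim means of 4.22 with control RNA and 14.2 without it. CHIL, a helper of chalcone synthesis, had -0.69 (adjusted p = 0.0406), a call lost when any 1 of 6 arrays was left out.

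The remaining lists had few measured genes. BZIP53, a transcription factor active under low energy, gave 519 and 530.3 in E2Fa-Dpa and 504 and 583 in wildtype on arrays with control RNA, against 270.0 and 250.3 in E2Fa-Dpa and 343 and 349 in wildtype on arrays without it, a rise of 0.80 ± 0.0989 (adjusted p = 0.00138). The other 2 measured genes of that starvation list, APL3 and AKINBETA1, were not called. PYE, a regulator of iron deficiency responses, was lower with -0.64 (adjusted p = 0.00973), while BHLH101 and CCS of the same list were not called. BGLU28, a glucosidase induced by sulfur shortage, was lower with -0.72 (adjusted p = 0.00602), and THI2.1, a jasmonate-induced thionin, with -0.39 (adjusted p = 0.0339), a call lost when any 1 of 7 arrays was left out. Both were dim, with means of 8.98 (BGLU28) and 7.13 (THI2.1) with control RNA, and 26.5 and 14.4 without it. PDF1.2, SAG101 and AT5G48570, listed as ROF2, which stand for jasmonate defence, salicylate defence and heat shock, were not called. None of the 3 measured hormone response genes, IAA29, WES1 and GH3.3, was called. The lists for dehydration and for phosphate starvation had no measured gene.

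Of 6 measured cell division genes 1 was higher. HTB2, a histone H2B, gave 845 and 786 in E2Fa-Dpa and 136 and 205 in wildtype on arrays with control RNA, against 282 and 371 in E2Fa-Dpa and 109 and 111 in wildtype on arrays without it, a rise of 0.92 ± 0.182 (adjusted p = 0.00849). It was higher in E2Fa-Dpa than in wildtype in each set, and the set difference was 1.29 in E2Fa-Dpa and 0.55 in wildtype, with no call for the difference between them (adjusted p = 0.358). ICU2, a subunit of DNA polymerase alpha, and AUR2, a mitotic kinase, were not called, with -0.26 and 0.40.

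The medians of the P450 and Aux/IAA families changed sign with the scaling. Among 23 cytochrome P450 genes 1 was higher and 2 lower, with CYP71B26 higher (adjusted p = 0.00806) and CYP78A9 lower (-0.73). Among 11 tau glutathione transferases, which detoxify compounds, 1 was lower, GSTU26 (-0.53). Of 6 WRKY factors, regulators of defence, 2 were lower, WRKY22 (-0.85) and WRKY20 (-0.28), and of 7 Aux/IAA auxin repressors 2 were lower, IAA33 (-0.33) and IAA31 (-0.40). The WRKY20 call ended when any 1 of 6 arrays was left out (adjusted p up to 0.103) and under all 3 other scalings. The calls of IAA33 and IAA31 ended without E2Fa-Dpa replicate 1 and under quantile normalization and cyclic loess. PSBY of photosystem II had -0.40, a call that ended when any 1 of 6 arrays was left out, and of 2 genes matched as heat shock proteins DJ1D had -0.34.

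Another 9 lists were put together after values had been seen, so their counts too describe and support nothing. The plastid-encoded genes, of which all 69 with a named probe set were taken, had 12 higher and 20 lower members, and all 32 had the same direction in both groups. Their median was -0.14, against -0.08 over all named genes, of which 8.7% were higher and 16.4% lower. Many of them are bright, and in the brightest of 10 equal bins of probe sets 23% were higher and 15.2% lower. Of the 32, 24 stayed called whichever array was left out and 17 with the close pairs averaged. Of 68 pairs of neighbours in gene order both genes were called in 21, in the same direction in 12 and in opposite directions in 9. The stretches that follow were picked after their values were seen. Among the measured genes ycf3, rps4, ndhJ and ndhK follow each other, and they were lower, with log2 differences of -1.66, -1.27, -1.58 and -1.47. The next gene, ndhC, was higher by 0.99. In plastids ndhC, ndhK and ndhJ are transcribed together and code for subunits of the NDH complex. The signal of ndhK was 50.3 and 89.6 in E2Fa-Dpa and 114 and 103 in wildtype on arrays with control RNA, against 202 and 183 in E2Fa-Dpa and 318 and 423 in wildtype on arrays without it, and that of ndhC was 1463 and 1519.9 in E2Fa-Dpa and 1529 and 1740.3 in wildtype on arrays with control RNA, against 681 and 603 in E2Fa-Dpa and 959.6 and 931 in wildtype on arrays without it. Neither overlapped between the sets.

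Further along, accD, for a subunit of fatty acid synthesis, and psaI were lower, with -0.95 and -0.87, while their neighbours ycf4, cemA, petA and psbJ were higher by 0.94, 0.77, 1.02 and 0.68. The largest fall was that of rpl20, a ribosomal protein gene, with 43.2 and 67.2 in E2Fa-Dpa and 77.5 and 67.3 in wildtype on arrays with control RNA, against 209 and 250.1 in E2Fa-Dpa and 212 and 475 in wildtype on arrays without it and -1.86 ± 0.223 on the log2 scale. The largest rise among those called was psbC, of a photosystem II antenna protein, with 857 and 999 in E2Fa-Dpa and 768 and 991 in wildtype on arrays with control RNA, against 142 and 115 in E2Fa-Dpa and 287 and 776 in wildtype on arrays without it. There wildtype replicate 2, without control RNA, lay within the range of the arrays with it. Its neighbours psbD and psbZ were lower, with -0.52 and -0.99, but the psbD call ended when any 1 of 7 arrays was left out (adjusted p up to 0.108) and under median centring and quantile normalization. Plastid genes lack the long poly-A tails that labelling usually starts from, and the part of the labelling in these values was not tested.

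**Figure D4:**
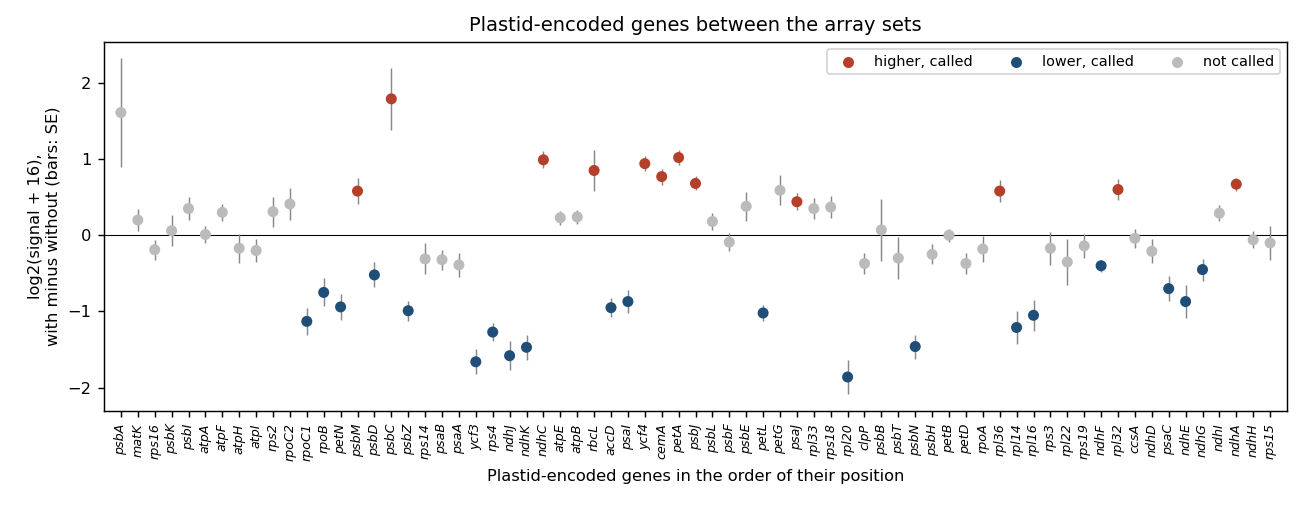
Difference between the array sets, as log2(signal + 16) with minus without control RNA, for 69 plastid-encoded genes in the order of their position (points, with SE as bars). Red points were called higher and blue points lower, with 12 higher and 20 lower. Of 21 neighbouring pairs with both genes called, 9 lie in opposite directions, such as ndhK lower and ndhC higher.

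Of 16 SWEET sugar transporters, which include SAG29, 10 were lower and none higher, and none had a positive difference. Over all named genes 16.4% were lower and 8.7% higher. The lower members SWEET3, SWEET4, SWEET13, SWEET14 and AtVEX1 were dim, with means of at most 16.8 with control RNA and 35.3 without it. The median was -0.53, and -0.93 with dim probe sets left out. Of the 10 calls 7 stayed whichever array was left out, 6 under all 3 other scalings and 3 with the close pairs averaged. SWEET11, which loads sucrose into the phloem, gave 232 and 241 in E2Fa-Dpa and 532 and 533 in wildtype on arrays with control RNA, against 651 and 624 in E2Fa-Dpa and 725 and 744 in wildtype on arrays without it, with -0.91 ± 0.17 on the log2 scale. SWEET17, a fructose transporter of the vacuole membrane, had -0.95, with nearly the same difference in both groups. SWEET2 had -1.21, and SWEET1 was not called over both groups, with 0.18 in E2Fa-Dpa and -0.71 in wildtype (adjusted p = 0.0246). Among 7 dehydrins and late embryogenesis proteins, AtLEA4-1, LEA, LEA18 and LEA4-5 were dim, with means of at most 6.72 with control RNA and 19 without it. These and AT2G44060 were lower, 5 of the 7. The median was -0.55, and -0.27 with dim probe sets left out. The exception was AT1G54410, listed as the dehydrin HIRD11, which gave 2216 and 2254 in E2Fa-Dpa and 3281 and 2994 in wildtype on arrays with control RNA, against 1171 and 1190.4 in E2Fa-Dpa and 1002 and 1049.7 in wildtype on arrays without it, a rise of 1.25 ± 0.141. Of 12 nitrate and peptide transporters 5 were lower and none higher, among them AT2G26690, with -0.63 in E2Fa-Dpa and -1.57 in wildtype, and AT3G21670, with -0.30 and -1.94 in the same order. Each of these passed within wildtype alone, and the difference between the groups was not called (adjusted p = 0.248 and 0.204). Of the 5 calls 2 stayed whichever array was left out, and that of AT3G21670 ended when any 1 of 6 was. Of 8 cellulose synthase-like genes 3 were lower, and all 3 calls ended under median centring, with the close pairs averaged and without single arrays.

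In the other added lists the called genes were all higher. DPE1, which breaks down starch products in plastids, gave 198 and 191 in E2Fa-Dpa and 226 and 264 in wildtype on arrays with control RNA, against 94.4 and 83.2 in E2Fa-Dpa and 52.2 and 66.9 in wildtype on arrays without it, and PWD, a kinase that phosphorylates starch before its breakdown, gave 253 and 274 in E2Fa-Dpa and 389.7 and 576 in wildtype on arrays with control RNA, against 119.8 and 147 in E2Fa-Dpa and 95.5 and 112 in wildtype on arrays without it. Both were above the other set on every array, with 1.40 ± 0.165 and 1.47 ± 0.229 on the log2 scale, while the other 5 starch enzymes were not called. Of 4 histone H2B genes 3 were higher, and HTB4 had 1.47 in E2Fa-Dpa (adjusted p = 0.00717) and 0.58 in wildtype (adjusted p = 0.0871, no call). Of 6 LSM proteins, which form rings on RNA in splicing and decay, 4 were higher, led by LSM3B with a mean signal of 216 ± 55.9 with control RNA and 91.6 ± 10.3 without it (SD, n = 4 each). Of 13 defensins and related peptides 3 were higher, with LCR69 at 1.04 and LCR68 at 0.58 beside PDF2.1. The medians were 0.76 for H2B genes, 0.45 for LSM genes, -0.03 for defensins and 0.03 for starch enzymes. Over all named genes the median was -0.08, with 8.7% higher and 16.4% lower. Whichever array was left out, 2 of 3 H2B calls, 2 of 4 LSM calls, 2 of 3 defensin calls and the 2 starch calls stayed. With the close pairs averaged, 1 LSM call and 1 starch call stayed, and none of the H2B or defensin calls did.

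The share of calls also varied with the brightness of a probe set and the length of its gene. Among the probe sets in the dimmest 3 of 10 equal bins of mean signal, the share lower was 0.967%, 12.4% and 27.1% and the share higher 0.22%, 2.02% and 2.68%. In the brightest bin 15.2% were lower and 23% higher. Among 5358 nuclear genes with a mean signal of at least 50, 21.6% were higher and 17.1% lower in the shortest of 5 equal bins of gene length (165 to 1604 bases), against 9.14% higher and 22.2% lower in the longest (3502 to 26499 bases). Across these genes length and the log2 difference correlated at a Spearman rho of -0.131, and length and mean signal at -0.151. The median difference from the shortest to the longest bin was 0.06 and -0.18 in E2Fa-Dpa, and 0.02 and -0.03 in wildtype. The length is that of the gene with introns in the RefSeq table. The share higher was also smaller in the longest bin under each of the other scalings, with 27.1% and 12.4% in the shortest and longest after median centring. The part of RNA length in this was not tested.

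**Figure D5:**
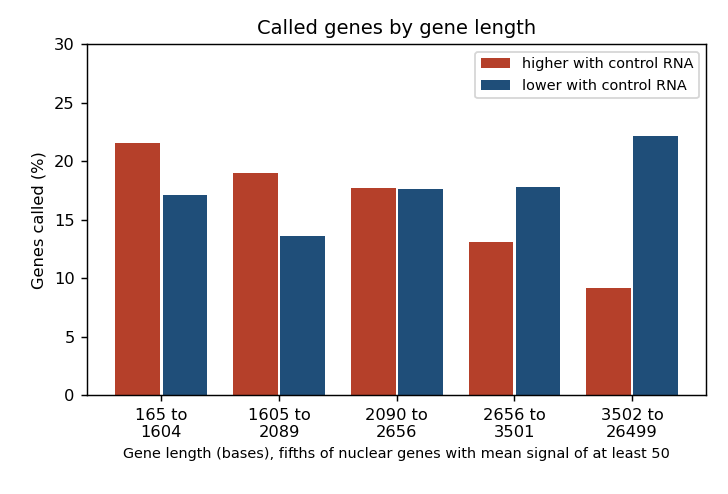
Share of nuclear genes called higher (red) or lower (blue) with control RNA, in percent, in 5 equal bins of gene length in bases, for genes with a mean signal of at least 50. The share higher falls from 21.6% in the shortest bin to 9.14% in the longest, and the share lower is 17.1% and 22.2%.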

How the data were processed

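The arrays and gene lists were chosen with earlier results of these data known. RNA of 8 seedling samples was read on ATH1 arrays with 22810 probe sets. The deposited values are linear intensities per probe set that the authors made with MAS5, per the submitters' processing notes, whose version is not given in the sources used here. MAS5 usually scales each array to a common level, so a shift shared by all genes cannot be seen. Arrays have no read depth, and their number limits the precision.

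The 64 control probe sets were left out of the tests, and log2(signal + 16) of the other 22746 was fitted in limma 3.58.1 (R 4.3.3), with moderated variances that follow the mean signal and with group and array set as terms. P-values were adjusted by Benjamini-Hochberg over the 22746 and called at 0.05. A model with a mean for each group and set gave the values within groups and the difference between them. A pseudocount understates the change of dim genes. The fit was tested on simulated data.

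Genes were named where the platform annotation gives a probe set 1 gene. That held for 13513 probe sets, of which 13436 matched RefSeq, while 503 name several genes and 8730 are not listed. Where a gene has several probe sets, the brightest stands for it. Families were matched by names in the gene table, so members can be missing. Named in the text are the 15 largest rises and 15 largest falls among called genes without overlap between the sets, all measured members of the clock, cold and root hair lists, the 3 members of each other list and the 2 of each family with the smallest p, and the largest rise and fall without a gene name. Further names come from lists put together after values were seen. Promoter motifs, which need sequences, were not analysed here. Alternatives were other pseudocounts, a filter on dim probe sets, other scalings, other models and leaving out each array.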

Additional observations from a re-analysis of the deposited data

Results flagged for a closer look

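In 11 of 198 groups of 4 arrays (99 genes in each array set), 1 array lay apart from the other 3 by a gap that takes up most of the range (Dixon's test at 95%). For 4 values of 1 kind chance gives about 1 in 20. Here each group of 4 mixes 2 arrays of wildtype and 2 of E2Fa-Dpa, so that rate need not hold. With control RNA, wildtype replicate 4 lay above the others for AT3G04550 (gap 0.859 of the range), AT2G43550 (0.859), BHLH101 (0.849), AT2G31790 (0.905) and AUR2 (0.854), and likewise for AT3G56290 (0.853), and below them for GH3.3 (0.885). In the same set wildtype replicate 3 was highest for AT3G10020 (0.848) and for CCS (0.984), and E2Fa-Dpa replicate 4 was highest for ATHSP22.0 (0.969). Without control RNA, E2Fa-Dpa replicate 2 was highest for AT2G14760 (0.965), at a signal of 11.2.

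The difference between the array sets was itself different in the 2 groups for 19 probe sets by limma's interaction test, and 12 of these name 1 gene. The genes were named after their values were seen. The set difference in E2Fa-Dpa minus that in wildtype was 1.69 for AT1G18130, 2.12 for AT4G23680, 1.99 for AT5G47550, 2.01 for AT5G02230, 2.25 for AT2G41190, 2.04 for AT5G04120, 2.56 for AT5G24210 and 1.17 for AT5G44990 on the log2 scale. It was -1.46 for AT4G30660, -1.53 for BGLU44, -2.27 for AT3G62550 and -1.35 for AT5G35735. AT5G24210 gave 119 and 124 in E2Fa-Dpa and 22.7 and 38.5 in wildtype on arrays with control RNA, against 38.3 and 53.5 in E2Fa-Dpa and 97.5 and 112 in wildtype on arrays without it, so the sets lay in opposite orders in the groups. AT3G62550 gave 338 and 366 in E2Fa-Dpa and 1999 and 2508 in wildtype on arrays with control RNA, against 613 and 518 in E2Fa-Dpa and 833 and 624 in wildtype on arrays without it, again in opposite orders. AT1G18130 gave 998 and 1028 in E2Fa-Dpa and 6.52 and 7.1 in wildtype on arrays with control RNA, against 328 and 351 in E2Fa-Dpa and 9.9 and 8.88 in wildtype on arrays without it and is low in wildtype in both sets.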

How the results depend on the processing

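None of the 5976 calls had the opposite sign under the alternatives run (3581 of them were tested where dim probe sets were left out). Leaving out each array in turn gave 3402 to 6754 calls, 1321 to 2741 higher and 2081 to 4013 lower, 10 to 5364 within E2Fa-Dpa, 1120 to 4170 within wildtype and 0 to 1044 for the difference between groups, where a pair reduced to 1 array is assumed to vary like the others. The fewest calls came without E2Fa-Dpa replicate 1. Only probe sets with a mean signal of at least 50 gave 3956 calls, 2017 lower, and 92 for the difference between groups, which was 33 with a pseudocount of 1 and 44 with 64. Quantile normalization gave 2492 lower. Without the group in the model 2345 were called (833 higher, 1512 lower), and with each close pair averaged 487 (193 and 294). The fit with the replicate block gave 356 (149 and 207), and there the set difference rests on replicates 1 and 3, whose arrays lie in opposite sets in the 2 groups. The labels give the numbers no shared origin. Deviations of same-numbered arrays from group means (-0.519, 0.443, -0.359 and 0.526) follow from the sets, and from the means of each group and set, a check chosen after seeing the data, they correlated at 0.0082, -0.06, -0.0979 and 0.0268, so the numbers were not taken as pairs. Pairs as a random block gave 7239, at a correlation within pairs of -0.128. The median of the root hair list was -0.76 with a pseudocount of 1 and -0.28 with 64. Of 4661 alternative values of single genes 4059 kept direction and call, 422 lost a call, 92 gained one and 88 moved. The cause was not tested, other than fewer probe sets or arrays where these were left out. Splitting the arrays on all Bacillus controls gave the same 5976 calls. The promoter motif search was not run. Dim signals limit the values under about 16.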
